A study of Mus musculus with 12 samples.

Results

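The 9 genes described here encode the receptors through which macrophages read colony-stimulating factors and the transcription factors that set and hold myeloid identity: *Csf1r*, *Csf2ra*, *Csf2rb*, *Csf3r*, *Spi1*, *Cebpa*, *Cebpb*, *Maf* and *Irf8*. The set is defined by names, with no cutoff on measured values, and was drawn up with earlier results of these data known. It was taken from 18193 genes that the arrays measured, and all 9 were measured. Expression was read on 12 Affymetrix mouse genome arrays of cultured peritoneal macrophages (PMs), 2 arrays in each of 6 groups. PMs were transfected with antagomir-21, an antisense oligonucleotide that blocks miR-21, with a scramble oligonucleotide, or carried the label lipofectamine, the transfection reagent. Each was exposed to exosomes released by sensory neurons made to overexpress miR-21 or, as the control, a GFP reporter.

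The groups were thus antagomir-21 with miR-21 exosomes, antagomir-21 with GFP exosomes, scramble with miR-21 exosomes, scramble with GFP exosomes, lipofectamine with miR-21 exosomes and lipofectamine with GFP exosomes. Every group received neuronal exosomes, so no PMs without exosomes are among them. The methods describe C57BL/6 mice of both sexes, PMs collected by lavage of the peritoneum and purified by adherence to plastic, and Lipofectamine as the reagent. They give a young adult age for mice lacking miR-21 in sensory neurons and their littermates, and no age for the donors of PMs. The arrays' labels give no strain, age, sex or number of animals, and what the lipofectamine PMs received besides the reagent is not stated for the arrays. The methods describe independently collected biological replicates, 3 for each condition. The labels of the 2 arrays analyzed per group do not say which cultures or animals they came from, so p-values below measure the spread between these arrays.

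Colony-stimulating factors act through receptors on the cell surface. CSF1R is a receptor tyrosine kinase that binds CSF1 and IL-34 and on which tissue macrophages depend for survival. CSF2RA binds GM-CSF and signals only with the common beta chain CSF2RB, which the receptors for IL-3 and IL-5 share, while CSF3R binds G-CSF and is best known from neutrophils. In the nucleus, PU.1 (encoded by *Spi1*) is the factor without which macrophages do not form and which binds regulatory DNA of receptor genes such as *Csf1r* and *Csf3r*. C/EBP alpha and C/EBP beta, encoded by *Cebpa* and *Cebpb*, bind next to it at many myeloid enhancers. c-MAF, encoded by *Maf*, helps to hold mature macrophages out of the cell cycle, and IRF8 directs progenitors to monocytes and dendritic cells.

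The oligonucleotides and exosomes of the study concern a single microRNA, whose mature sequence is given for that reason, from RefSeq on the GRCm38.p6 build (chr11:86584120-86584141, minus strand), with the seed, bases 2 to 8, in capitals.
mmu-miR-21a-5p: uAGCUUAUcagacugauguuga

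Promoter sequence from RefSeq (GRCm38.p6) was found for 5 of the 9 genes, at 6 start sites. The 250 bases before each start were searched on both strands for GAGGAA, the letters of a PU.1 site, for TTNNGCAA (C/EBP), for TGCTGA (the core of a MAF recognition element) and for AANNGAAA (IRF). GAGGAA was present before 2 of the 6 starts, against 23.3% of 32851 promoters of all genes, and TGCTGA before 2 of the 6, against 16.1%. TTNNGCAA (9.56% of all promoters) and AANNGAAA (21.3%) were found before none of them. The stretches of 30 bases with GAGGAA are shown, since these are the letters by which PU.1 could read the receptor genes of this set, with the match in capitals. They belong to *Csf2ra* (chr19:61228419-61228448, minus strand), where the 6 letters stand 2 times in a row directly before the start, and to *Csf3r* (chr4:126024561-126024590, plus strand). Both stretches lie inside the annotated bounds of their genes (chr19:61217191-61228461 and chr4:126023441-126044975), so these starts are not the outermost ones.
Csf2ra: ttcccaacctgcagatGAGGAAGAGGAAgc
Csf3r: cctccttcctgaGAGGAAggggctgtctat

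The TGCTGA matches lay before the start of *Csf3r* and before the second start of *Irf8*. None of these matches is a measured binding site.

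Signals are given on the deposited log2 scale, on which a step of 1 is a doubling. Each gene was read by its brightest probe set on average over the 12 arrays, and since probes differ in how strongly they bind, levels are compared between groups and not between genes. Of the macrophage markers all 7 genes were measured, and their summed signal ran from 16.05 to 18.21 on the log2 scale over the 12 arrays, with *Lyz2* (16.94 ± 0.82), *Cd68* (13.27 ± 1.01) and *Adgre1* (12.87 ± 0.64; SD, n = 12), among them. Of the lists for other cells, that for B cells summed to 11.83 to 14.00 on the log2 scale (4 of its 5 genes measured), with *Ms4a1* at 12.41 ± 0.81 (SD, n = 12). The other measured genes of that list averaged 9.11 (*Cd79b*), 8.58 (*Cd79a*) and 5.96 (*Pax5*), so by these averages *Ms4a1* made most of the sum. Neutrophil markers summed to 9.41 to 11.31 (5 of 7 measured) and dendritic cell markers to 9.62 to 11.46 (5 of 6 measured). None of these markers was at 0, but only 11 values of the whole table were, and with no detection calls a low signal cannot be told apart from background. The mean correlation over all genes was 0.591 between the 2 arrays of a group (6 pairs) and 0.602 between arrays of 2 groups (60 pairs).

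**Figure D1:**
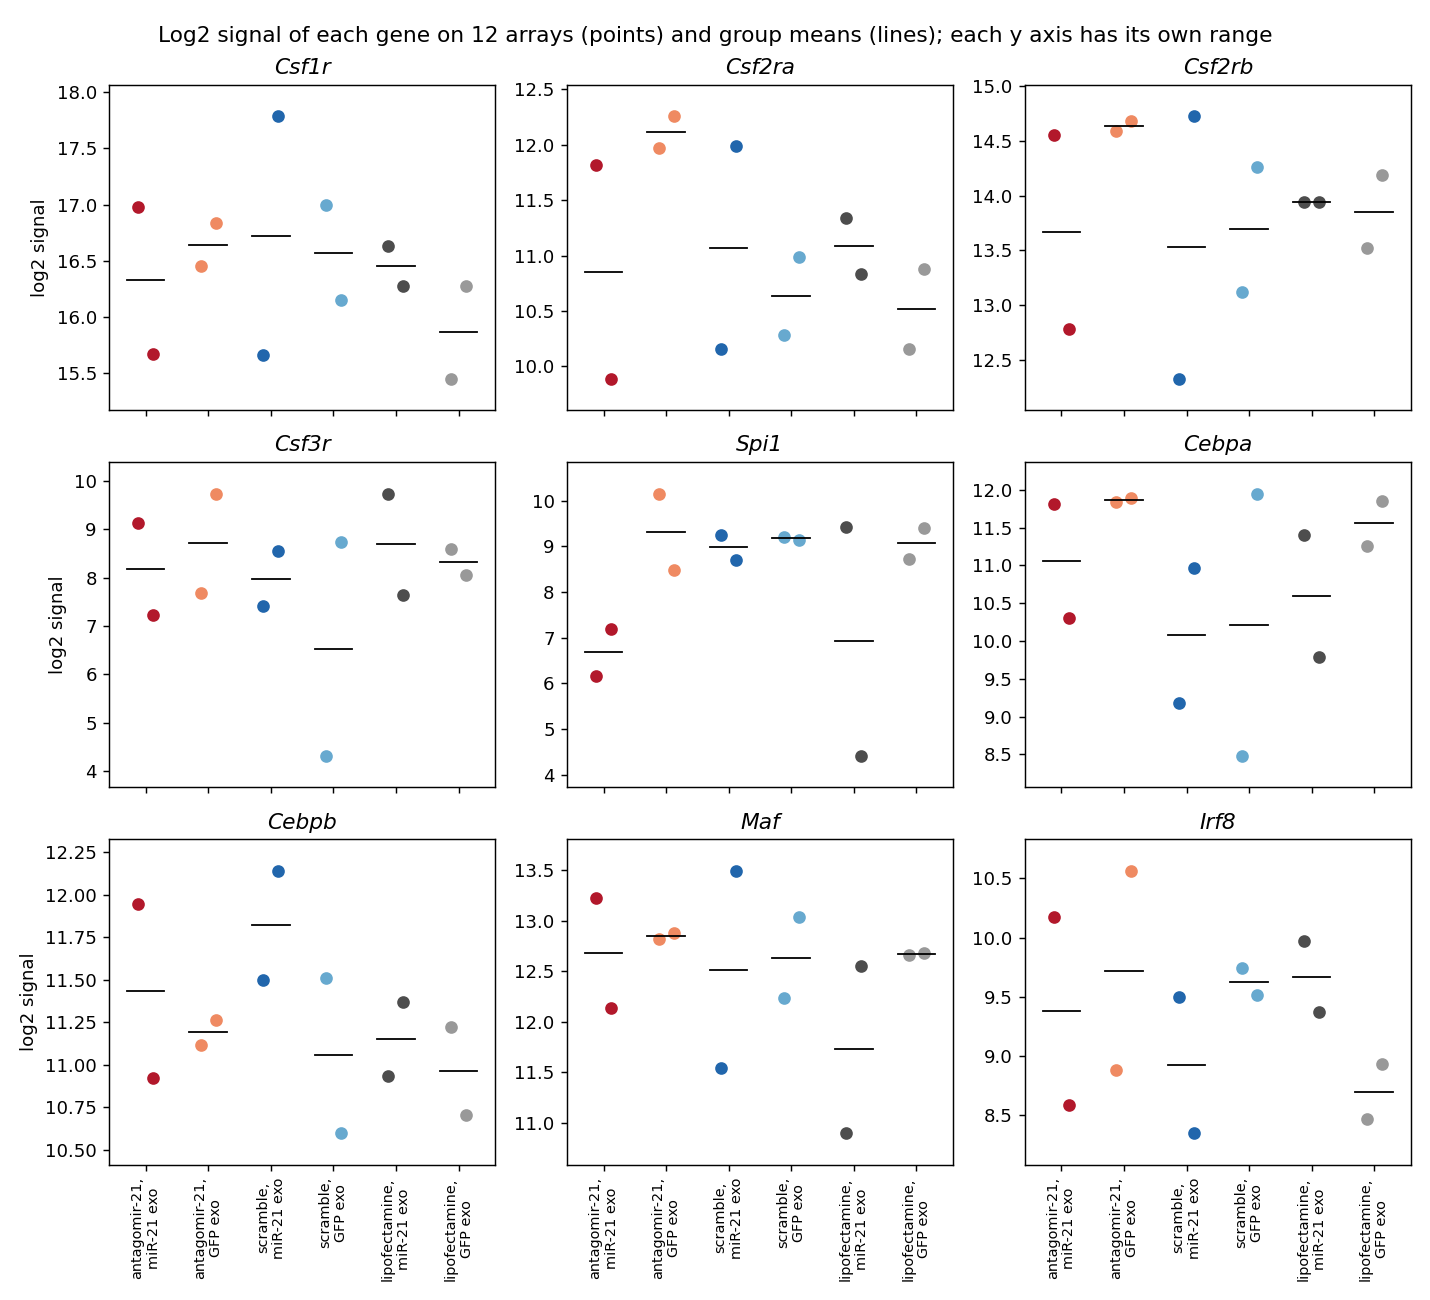
Log2 signal (y axis, own range in each panel) of the 9 genes on each of the 12 arrays (points) in the 6 groups (x axis), with the mean of the 2 arrays as a line. The 2 arrays of a group often lay as far apart as the groups did, and *Spi1* was below 7.5 on 3 arrays, all of PMs with miR-21 exosomes.

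None of the 9 genes differed among the 6 groups beyond the spread between arrays. In a limma F test over the 6 group means the unadjusted p ran from 0.290 (*Spi1*) to 0.956 (*Csf1r*), and the adjusted p was 0.9999 for each. Of all 18193 genes 5.96% had an unadjusted p under 0.05 in this test and 0% an adjusted one, so 0 of 9 lies close to the background. For *Spi1* the F of 1.44 was 6.23 without lipofectamine with miR-21 exosomes replicate 1 (unadjusted p = 0.00924), with an adjusted p of at least 0.637 under every alternative.

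*Csf1r*, the receptor that defines the lineage, was read at 16.43 ± 0.67 (SD, n = 12). It stood at 16.98 and 15.67 in antagomir-21 PMs with miR-21 exosomes and at 16.45 and 16.83 with GFP exosomes, at 15.65 and 17.79 in scramble PMs with miR-21 exosomes and at 16.99 and 16.15 with GFP exosomes. Lipofectamine PMs had 16.63 and 16.27 with miR-21 exosomes and 15.45 and 16.28 with GFP exosomes. The highest and one of the lowest arrays were the 2 of the same group, scramble with miR-21 exosomes, and the range of that group overlapped those of the other 5. By mean the order ran from scramble with miR-21 exosomes (16.72 ± 1.51) down to lipofectamine with GFP exosomes (15.86 ± 0.59; SD, n = 2 each), and no step between neighbors exceeded 0.46, against an SE of 0.99 for a difference between 2 groups.

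*Csf2ra*, the GM-CSF-binding chain, had a signal of 11.05 ± 0.82 (SD, n = 12). Antagomir-21 PMs had 11.82 and 9.89 with miR-21 exosomes and 11.97 and 12.25 with GFP exosomes, and scramble PMs had 10.16 and 11.98 with miR-21 exosomes and 10.28 and 10.98 with GFP exosomes. In lipofectamine PMs it was 11.34 and 10.84 with miR-21 exosomes and 10.16 and 10.88 with GFP exosomes. Antagomir-21 with GFP exosomes held the highest mean (12.11 ± 0.20, SD, n = 2), 1.03 above the next group, a step close to the SE of 0.998 for such a difference, and the means of the other 5 groups lay within 0.22 of their neighbors.

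*Csf2rb*, the signaling chain that pairs with it, repeated much of this pattern at 13.89 ± 0.79 (SD, n = 12). Its values were 14.56 and 12.78 in antagomir-21 PMs with miR-21 exosomes and 14.59 and 14.68 with GFP exosomes, and 12.33 and 14.73 in scramble PMs with miR-21 exosomes and 13.12 and 14.26 with GFP exosomes. Lipofectamine PMs read 13.94 and 13.94 with miR-21 exosomes and 13.52 and 14.19 with GFP exosomes. Antagomir-21 with GFP exosomes was again first by mean (14.64 ± 0.06) and scramble with miR-21 exosomes last (13.53 ± 1.70; SD, n = 2 each), and the 2 arrays of scramble with miR-21 exosomes spanned the lowest and the highest of the 12 arrays.

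*Csf3r*, the G-CSF receptor, was the most scattered of the receptor genes (8.07 ± 1.45, SD, n = 12). Antagomir-21 PMs had 9.14 and 7.23 with miR-21 exosomes and 7.69 and 9.72 with GFP exosomes, against 7.41 and 8.54 with miR-21 exosomes and 4.32 and 8.73 with GFP exosomes in scramble PMs. Lipofectamine PMs had 9.74 and 7.64 with miR-21 exosomes and 8.59 and 8.05 with GFP exosomes. A single array, scramble with GFP exosomes replicate 1, lay at 4.32, and the other 11 arrays were above 7. That array put its group last by mean (6.52 ± 3.12, SD, n = 2), 1.46 below the next, within the SE of 1.49 for a difference between 2 groups.

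*Spi1*, the gene of PU.1, varied the most among the 9 (8.36 ± 1.64, SD, n = 12). It read 6.17 and 7.20 in antagomir-21 PMs with miR-21 exosomes, against 10.15 and 8.48 with GFP exosomes. Scramble PMs had 9.25 and 8.71 with miR-21 exosomes and 9.21 and 9.14 with GFP exosomes, and lipofectamine PMs had 9.43 and 4.42 with miR-21 exosomes and 8.73 and 9.40 with GFP exosomes. The 3 low arrays all had miR-21 exosomes, but so did 3 arrays within the range of the GFP arrays. By mean 4 groups lay between 8.98 and 9.32, and a step of 2.05 led down to lipofectamine with miR-21 exosomes (6.92 ± 3.55) and antagomir-21 with miR-21 exosomes (6.68 ± 0.73; SD, n = 2 each), the widest step between neighboring groups for any of the 9 genes.

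*Cebpa*, whose product drives commitment to the myeloid line, was read at 10.89 ± 1.19 (SD, n = 12). It was at 11.81 and 10.31 in antagomir-21 PMs with miR-21 exosomes and 11.84 and 11.89 with GFP exosomes, and at 9.18 and 10.97 in scramble PMs with miR-21 exosomes and 8.48 and 11.95 with GFP exosomes. Lipofectamine PMs had 11.41 and 9.79 with miR-21 exosomes and 11.26 and 11.86 with GFP exosomes. The arrays of scramble with GFP exosomes were the lowest and the highest of all 12, so the order of the group means, from 11.87 ± 0.03 in antagomir-21 with GFP exosomes to 10.07 ± 1.26 in scramble with miR-21 exosomes (SD, n = 2 each), rested on groups of very different spread.

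*Cebpb*, a factor of activated macrophages, was the steadiest of the 9 (11.27 ± 0.46, SD, n = 12). Its values were 11.94 and 10.92 with miR-21 exosomes and 11.12 and 11.27 with GFP exosomes in antagomir-21 PMs, and 11.50 and 12.14 with miR-21 exosomes and 11.51 and 10.60 with GFP exosomes in scramble PMs. In lipofectamine PMs the gene read 10.93 and 11.37 with miR-21 exosomes and 11.22 and 10.70 with GFP exosomes. The highest mean, 11.82 ± 0.45 in scramble with miR-21 exosomes, and the lowest, 10.96 ± 0.37 in lipofectamine with GFP exosomes (SD, n = 2 each), differed by 0.86, about the SE of 0.85 for such a difference.

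*Maf* had a signal of 12.51 ± 0.73 (SD, n = 12). Antagomir-21 PMs had 13.22 and 12.14 with miR-21 exosomes and 12.82 and 12.88 with GFP exosomes, and scramble PMs 11.54 and 13.49 with miR-21 exosomes and 12.24 and 13.04 with GFP exosomes. Lipofectamine PMs had 10.90 and 12.56 with miR-21 exosomes and 12.66 and 12.68 with GFP exosomes. All 6 arrays with GFP exosomes lay between 12.24 and 13.04, inside the range of the arrays with miR-21 exosomes (10.90 to 13.49).

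*Irf8* was read at 9.34 ± 0.71 (SD, n = 12). Its signal was 10.18 and 8.59 in antagomir-21 PMs with miR-21 exosomes and 8.88 and 10.56 with GFP exosomes, and 9.50 and 8.35 in scramble PMs with miR-21 exosomes and 9.74 and 9.51 with GFP exosomes. It read 9.97 and 9.37 in lipofectamine PMs with miR-21 exosomes and 8.47 and 8.93 with GFP exosomes. The group means ran from 9.72 ± 1.19 in antagomir-21 with GFP exosomes to 8.70 ± 0.33 in lipofectamine with GFP exosomes (SD, n = 2 each), with steps of at most 0.46 between neighbors and an SE of 0.97 for a difference. Across the 9 genes, antagomir-21 with GFP exosomes held the highest mean for 7 (all but *Csf1r* and *Cebpb*), a count over genes of the same 2 arrays and so not 7 separate observations.

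The paper reports that antagomir-21 lowered miR-21 in PMs only in part. Whether antagomir-21 moved the 9 genes was asked by comparing 4 antagomir-21 arrays with 4 scramble arrays over both exosome types. None passed the test. The differences ran from −1.08 for *Spi1* to 1.32 for *Cebpa*, and 6 of 9 were higher and 3 lower in antagomir-21 PMs (median 0.28, against 0.00 over all genes), where the sign of *Maf* turned under quantile normalization and that of *Cebpb* under median centring, which put the median of all genes at 0.15. *Cebpa* averaged 11.46 ± 0.77 in antagomir-21 PMs and 10.14 ± 1.59 in scramble PMs (SD, n = 4 each), a log2 difference of 1.32 with an SE of 0.89 (95% interval −0.66 to 3.29, limma unadjusted p = 0.169, adjusted p = 0.995). It rested on the 2 arrays of scramble with GFP exosomes, since the difference was 0.45 without replicate 1 and 2.18 without replicate 2 (unadjusted p = 0.0264), and the adjusted p was at least 0.587 under every alternative. *Csf3r* averaged 8.44 ± 1.18 in antagomir-21 PMs and 7.25 ± 2.04 in scramble PMs (difference 1.19, SE 1.05), and the difference was 0.09 without the low scramble array and 2.30 without the other array of its group (unadjusted p = 0.0353; adjusted p at least 0.606 under every alternative). *Spi1* averaged 8.001 ± 1.72 in antagomir-21 PMs and 9.08 ± 0.25 in scramble PMs (difference −1.08, interval −3.32 to 1.17, adjusted p = 0.9996).

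For *Csf1r* the interval ran from −1.71 to 1.39, for *Csf2ra* from −0.93 to 2.20 and for *Csf2rb* from −1.11 to 2.20. It ran from −1.46 to 1.21 for *Cebpb*, from −1.38 to 1.76 for *Maf* and from −1.25 to 1.80 for *Irf8*. Each of these intervals held a doubling and, but for *Csf2ra*, a halving, so such changes were not detectable with 4 arrays a side. Over all 18193 genes 5.16% had an unadjusted p under 0.05 (306 higher and 633 lower, or 460 and 442 after quantile normalization) and 0% an adjusted one, and 1.97% had groups that did not overlap, against 0 of the 9 on each count.

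**Figure D2:**
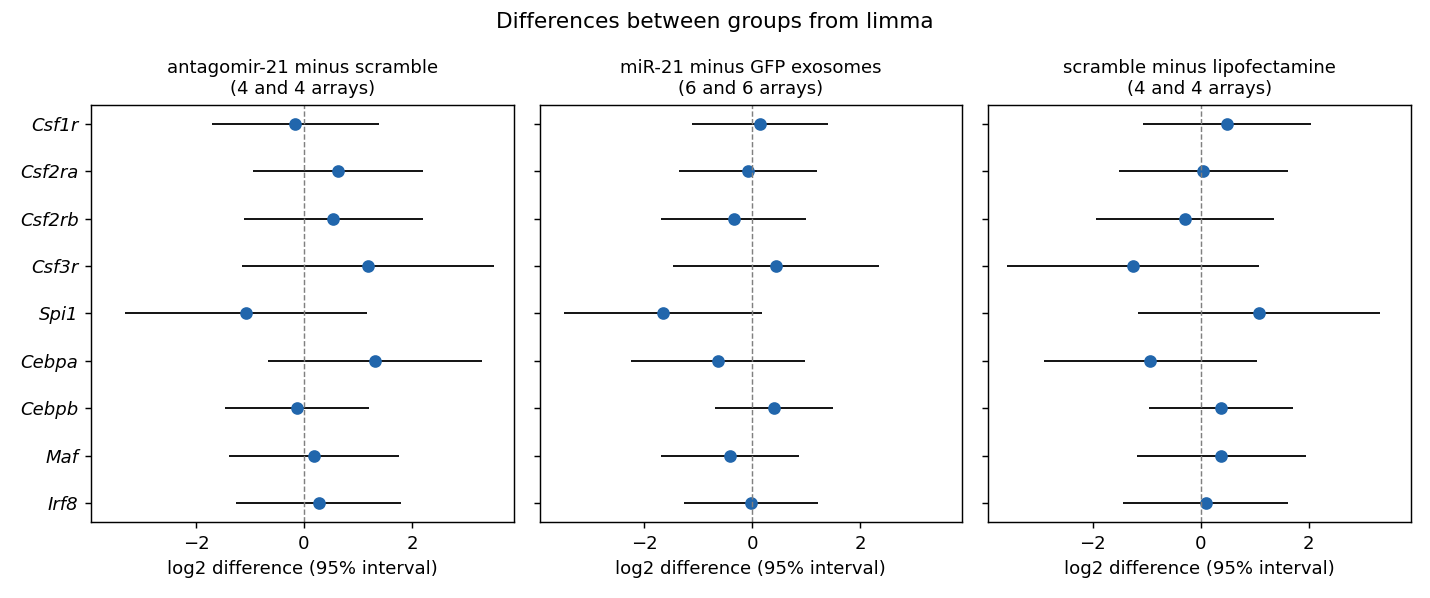
Log2 difference (x axis, points) with its 95% interval from limma (bars) for each of the 9 genes (rows) in 3 comparisons over pooled groups. Every interval spans 0, and that of *Spi1* for miR-21 minus GFP exosomes, from −3.49 to 0.17, comes nearest to leaving it.

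With exosomes carrying miR-21 the question was whether miR-21 delivered from neurons moved the genes, and 6 arrays with miR-21 exosomes were set against 6 with GFP exosomes over the 3 transfections. *Spi1* had the largest difference of the 9 and the lowest p, without passing the test. It averaged 7.53 ± 1.98 with miR-21 exosomes and 9.19 ± 0.58 with GFP exosomes (SD, n = 6 each), a log2 difference of −1.66 with an SE of 0.82 (interval −3.49 to 0.17, limma unadjusted p = 0.0713, adjusted p = 0.944). Its size rested on single arrays. Without lipofectamine with miR-21 exosomes replicate 2, where *Spi1* read 4.42, the difference was −0.82, and without replicate 1 of that group, at 9.43, it was −2.49 (unadjusted p = 0.0018, adjusted p = 0.684). *Spi1* was read by a single probe set, so no second measure on the array bears on it.

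The other 8 genes differed by less. *Cebpa* averaged 10.58 ± 0.999 with miR-21 exosomes and 11.21 ± 1.36 with GFP exosomes, and *Csf3r* averaged 8.28 ± 1.02 with miR-21 exosomes and 7.85 ± 1.86 with GFP exosomes (SD, n = 6 each), with differences of −0.64 (interval −2.25 to 0.98; −1.22 and −0.060 without replicate 1 and 2 of scramble with GFP exosomes) and 0.43 (−1.47 to 2.34). For *Maf* the difference was −0.41 (−1.69 to 0.87), for *Cebpb* 0.40 (−0.69 to 1.49) and for *Csf2rb* −0.35 (−1.70 to 1.001). *Csf1r* (0.14), *Csf2ra* (−0.08) and *Irf8* (−0.02) lay nearest to 0, the first 2 changing sign under median centring or quantile normalization, with intervals from −1.13 to 1.40, −1.36 to 1.20 and −1.27 to 1.22, so a change by a full doubling in either direction was not detectable for them. Of all genes 5.45% had an unadjusted p under 0.05 (728 higher and 263 lower, or 488 and 446 after median centring), 0% an adjusted one and 0.286% groups that did not overlap, against 0 of the 9 on each count.

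Scramble PMs were also set against lipofectamine PMs, 4 arrays each. What the latter received besides the reagent is not stated, so the comparison is between labels and not of an oligonucleotide alone. *Csf3r* was read at 7.25 ± 2.04 in scramble PMs and 8.50 ± 0.91 in lipofectamine PMs (SD, n = 4 each; difference −1.25, interval −3.58 to 1.08), which was −0.15 without the low scramble array and −2.35 without the other array of its group (unadjusted p = 0.0319; adjusted p at least 0.685 under every alternative). *Spi1* stood at 9.08 ± 0.25 in scramble PMs and 7.99 ± 2.41 in lipofectamine PMs (difference 1.08, interval −1.16 to 3.32), and the difference was −0.17 without the low lipofectamine array and 2.34 without the other array of its group (unadjusted p = 0.0103; adjusted p at least 0.946 under every alternative). *Cebpa* differed by −0.93 (−2.91 to 1.04), or by −0.067 and −1.80 without replicate 1 and 2 of scramble with GFP exosomes, and the other 6 by 0.05 to 0.49 in size. The share of all genes with an unadjusted p under 0.05 was 4.14%, with an adjusted one 0% and with groups that did not overlap 2.08%, against 0 of the 9 on each count.

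The effect of antagomir-21 could depend on the exosomes. The interaction, the antagomir-21 effect with miR-21 exosomes minus that with GFP exosomes, was negative for 8 of 9 genes, with a median of −0.67 (−0.12 over all genes). None passed the test (0 of 9 at an unadjusted p under 0.05, against 5.36% of all genes). It was −2.44 for *Spi1* (SE 2.02, unadjusted p = 0.255), −1.98 for *Csf3r* (SE 2.10) and −1.70 for *Csf2ra* (SE 1.41, unadjusted p = 0.256), and 0.36 for *Irf8* (SE 1.37), the gene with the opposite sign (joined by *Maf* after quantile normalization). These values share arrays and move together between genes, as given below for pairs of genes.

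Within one exosome type or one transfection the comparisons rested on 2 arrays against 2, where groups that do not overlap are common. With GFP exosomes all 9 genes were higher in antagomir-21 than in scramble PMs, by 0.07 (*Csf1r*) to 2.18 (*Csf3r*), with a median of 0.22 and a median SE of 0.998 (all genes 0.03). *Csf2ra* (12.11 ± 0.20 in antagomir-21 PMs against 10.63 ± 0.50 in scramble PMs; SD, n = 2 each) and *Csf2rb* (14.64 ± 0.06 in antagomir-21 PMs against 13.69 ± 0.81 in scramble PMs) had groups that did not overlap, 2 of 9 genes beside 35.8% of all genes, and 0 of 9 had an unadjusted p under 0.05 (5.38% of all genes). The summed macrophage markers also lay apart here, at 18.04 and 18.09 in antagomir-21 PMs with GFP exosomes, against 16.05 and 17.50 in scramble PMs with GFP exosomes, and their part in the shift was not tested. With miR-21 exosomes 5 were higher and 4 lower, and only *Spi1* had groups that did not overlap (6.68 ± 0.73 in antagomir-21 PMs and 8.98 ± 0.38 in scramble PMs, difference −2.29, limma unadjusted p = 0.138, adjusted p = 0.9998), 1 of 9 beside 26.2% of all genes, while 5.3% of all genes had an unadjusted p under 0.05.

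After antagomir-21, 8 of 9 genes were lower with miR-21 than with GFP exosomes (median −0.52, all genes −0.08). *Spi1* (difference −2.63, SE 1.43, limma unadjusted p = 0.094), *Csf2ra* (−1.26), *Csf2rb* (−0.97) and *Cebpa* (−0.81) did not overlap, 4 of 9 beside 30.9% of all genes, and 5.68% of all genes had an unadjusted p under 0.05, against 0 of 9. After scramble *Irf8* alone did not overlap (8.92 ± 0.81 with miR-21 exosomes and 9.63 ± 0.16 with GFP exosomes, SD, n = 2 each), 1 of 9 beside 28.8%, and 0 of 9 passed beside 5.7%. After lipofectamine *Maf* was lower (11.73 ± 1.17 with miR-21 exosomes and 12.67 ± 0.01 with GFP exosomes) and *Irf8* higher (9.67 ± 0.43 with miR-21 exosomes and 8.70 ± 0.33 with GFP exosomes), each without overlap, 2 of 9 beside 35.4%, and again 0 of 9 passed beside 3.84%. *Irf8* thus differed by −0.70 after scramble and by 0.97 after lipofectamine, each within its SE of 0.97, and the difference between these effects was not tested.

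Several genes were read by more than one probe set, 20 in all, and these often disagreed. *Csf3r*, *Spi1* and *Cebpa* had 1 each, *Csf2ra*, *Csf2rb*, *Cebpb* and *Irf8* had 2, *Csf1r* had 3 and *Maf* 6. Over the 12 arrays the 11 other probe sets correlated with the one used between −0.47 and 0.76, and 4 of the 11 below 0. For *Csf2ra* the r was −0.35 and for *Irf8* −0.18, so the patterns given above for these genes were not shared by their second probe set. The difference between antagomir-21 and scramble had the opposite sign for 5 of the 11, that between miR-21 and GFP exosomes for 4 and that between scramble and lipofectamine for 6.

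The second *Csf2rb* probe set stood apart. It read 12.06 and 9.21 in antagomir-21 PMs with miR-21 exosomes and 11.92 and 11.75 with GFP exosomes, against 8.43 and 5.70 in scramble PMs with miR-21 exosomes and 9.24 and 10.55 with GFP exosomes. Lipofectamine PMs had 10.44 and 8.59 with miR-21 exosomes and 11.01 and 11.31 with GFP exosomes. Of the 4 antagomir-21 arrays 3 were above every scramble array. In a fit over all 34945 probe sets with 1 gene symbol, its difference between antagomir-21 and scramble was 2.76 (SE 0.93, limma unadjusted p = 0.0127, adjusted p = 0.736) and between miR-21 and GFP exosomes −1.89 (SE 0.76, unadjusted p = 0.0298, adjusted p = 0.809). In these comparisons 5.62% and 5.9% of all probe sets had an unadjusted p under 0.05 and 0% an adjusted one, and 1 of the 11 other probe sets of these genes, this one, had an unadjusted p under 0.05 in each. The probe set used for *Csf2rb* differed by 0.54 and −0.35. With the mean of both probe sets *Csf2rb* differed between antagomir-21 and scramble by 1.65 (limma unadjusted p = 0.0311; adjusted p at least 0.777 under every alternative). *Csf2rb* has a near-identical neighbor, *Csf2rb2*, whose product serves IL-3 in mice, and a further probe set carries both names (8.95 on average, 5.12 to 9.91) and was assigned to neither, so how far the probes tell the pair apart is not known from the table.

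**Figure D3:**
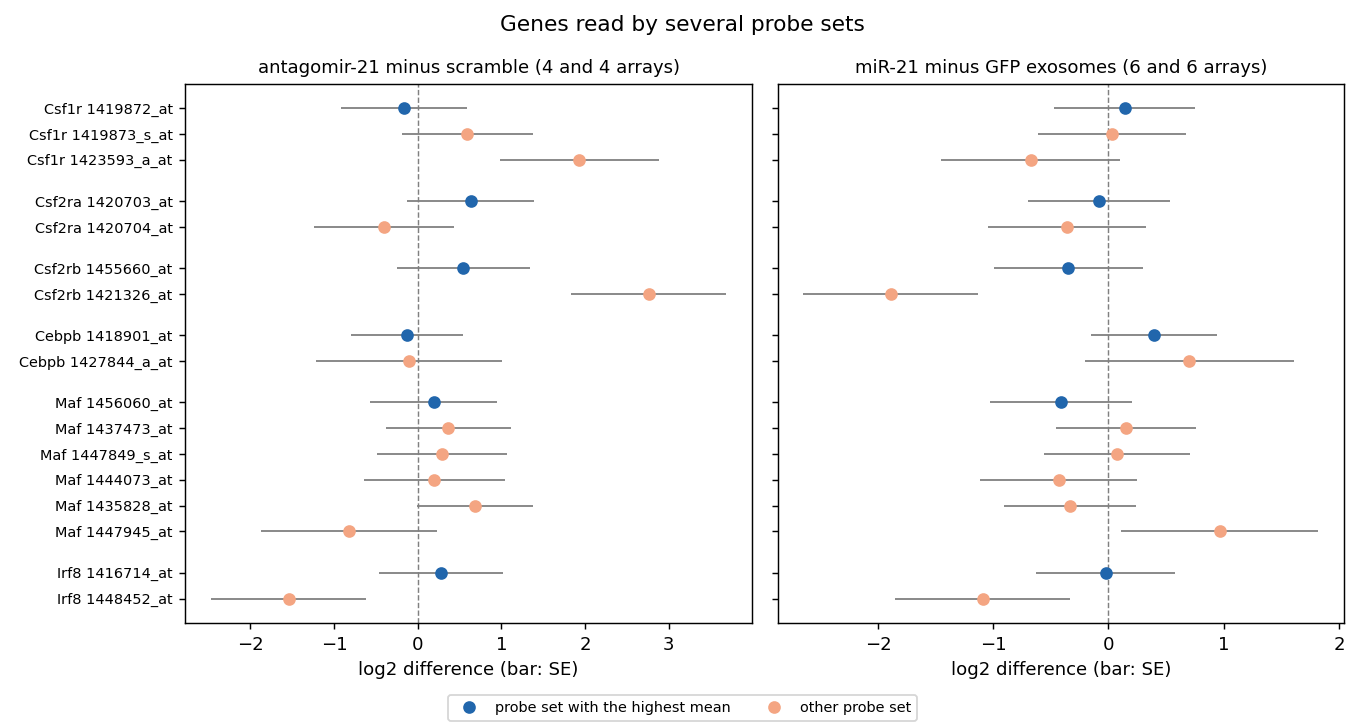
Log2 difference (x axis, points) with its SE (bars) for each probe set (rows, by gene) of the 6 genes that have more than one, for antagomir-21 minus scramble and miR-21 minus GFP exosomes. Probe sets of one gene often fall on both sides of 0, and the second *Csf2rb* probe set lies farthest from it, at 2.76 and −1.89.

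The third *Csf1r* probe set gave 1.93 between antagomir-21 and scramble (SE 0.95, unadjusted p = 0.0678, adjusted p = 0.926) where the one used gave −0.16, and the second *Irf8* probe set gave −1.54 (SE 0.93) where the one used gave 0.28. A second *Cebpb* probe set followed the first with an r of 0.74 and a difference of −0.10. For *Maf*, 4 of the 5 other probe sets differed by 0.20 to 0.68 and one by −0.82, each within 1 SE of 0.

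Some of the 9 genes varied together over the arrays, within groups as well as between them. Of 36 pairs the median correlation was 0.19 (range −0.30 to 0.90), and 10 were above 0.5. The closest pair was the 2 chains of the GM-CSF receptor, *Csf2ra* and *Csf2rb* (Pearson r 0.90, Spearman rho 0.94, n = 12 arrays), at 0.87 without the 2 arrays farthest from the median of *Csf2ra* and 0.96 after group means were removed. Both were read by their brightest probe sets, with which the second probe sets correlated at only −0.35 (*Csf2ra*) and 0.28 (*Csf2rb*). *Csf3r* and *Cebpa* followed (0.80 and 0.71), at 0.67 without the 2 farthest arrays and 0.90 within groups, and *Csf2rb* and *Cebpa* (0.76 and 0.67). *Spi1* followed none of the other 8 (r from −0.30 to 0.18), its receptor genes *Csf1r* (0.01) and *Csf3r* (−0.05) included. Within groups its r ran from −0.67 (*Maf*) and −0.45 (*Cebpb*) to 0.23 (*Cebpa*). The mean signals of *Spi1* (8.36) and *Csf3r* (8.07) lay among the array medians (7.92 to 8.58), where signal and background cannot be told apart, which limits the values of both genes.

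**Figure D4:**
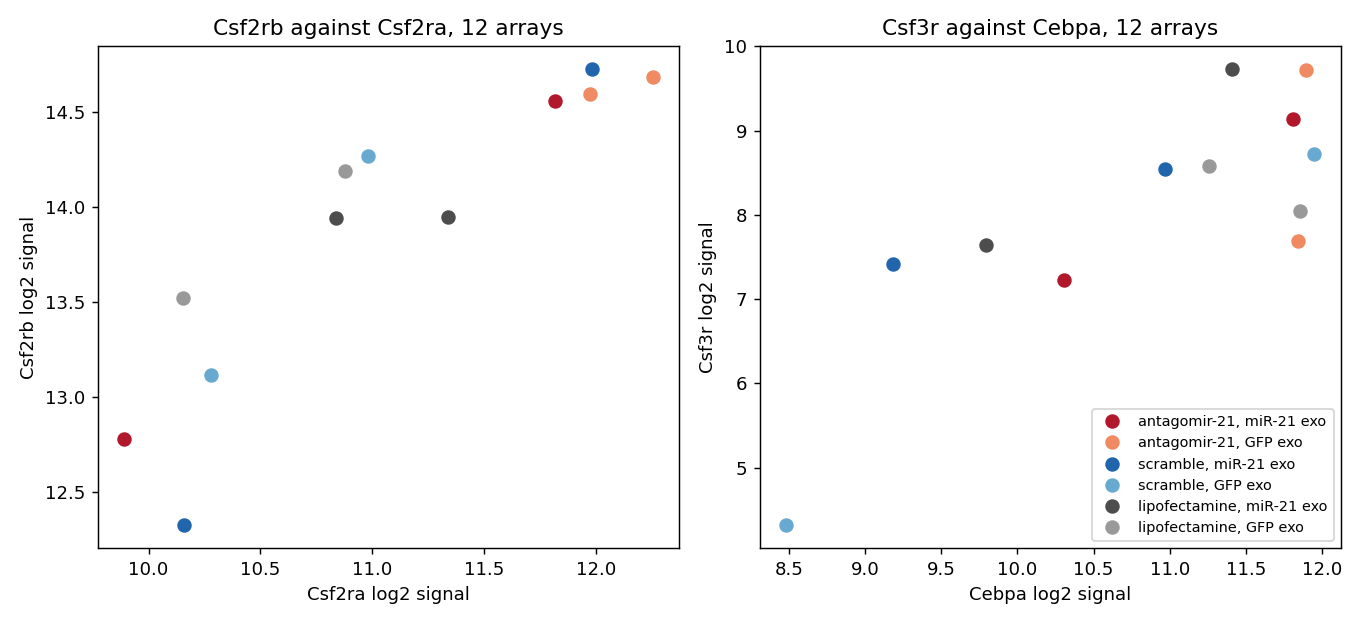
Log2 signals of *Csf2rb* against *Csf2ra* and of *Csf3r* against *Cebpa* (axes), each read by its brightest probe set, on the 12 arrays (points, colored by group). In both panels arrays of one group lie far apart along the trend, and *Csf3r* with *Cebpa* has a single array in the lower left corner, at 4.32 and 8.48.

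The arrays share a scale as well as RNA, and the same genes followed it. *Csf2rb* and *Csf2ra* correlated at 0.86 and 0.84 with the SD of all signals on the array, and *Cebpa* at −0.93 with the array's median signal. After quantile normalization, which gives every array the same distribution, *Csf2ra* with *Csf2rb* stood at 0.79, *Csf3r* with *Cebpa* at 0.88, and 6 of the 36 pairs were above 0.5, while *Csf2rb* with *Maf* went to −0.02, against 0.64 before. Among the 9096 brighter genes, 5% of pairs had an r above 0.68. Ranked by likeness to *Csf2ra*, *Csf2rb* came 89th of 9095 genes and, the other way round, *Csf2ra* came 175th, while *Cebpa* came 191st for *Csf3r* and *Csf3r* 336th for *Cebpa*. How much of these correlations the scale of the arrays makes was not tested.

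The genes most like each of the 9 over the 12 arrays were picked as the 3 with the highest r among genes above the median signal. *Slc38a6* (0.98), *Atp5a1* (0.98) and *Acsl5* (0.97) were closest to *Csf2rb*, *Lgals3* (0.96), *Aldoa* (0.96) and *Itgb2* (0.96) to *Csf2ra*, and *Micos10* (0.97), *Hspa8* (0.97) and *Prpf6* (0.96) to *Csf1r*. For *Csf3r* they were *Pdcd2l* (0.95), *Sgta* (0.94) and *Mlxip* (0.94), for *Spi1* *Tspan33* (0.89), *Ssr2* (0.86) and *Ccl7* (0.86), and for *Cebpa* *Dhcr7* (0.96), *Cab39* (0.96) and *Tmem189* (0.96). *Zfp330* (0.90), *Mrps15* (0.89) and *Sap30l* (0.86) were closest to *Cebpb*, *Zfx* (0.97), *Slc19a2* (0.97) and *Chmp5* (0.96) to *Maf*, and *Zfyve19* (0.91), *6430548M08Rik* (0.90) and *Ccnyl1* (0.88) to *Irf8*. After quantile normalization 4 of these 27 (*Ccl7*, *Dhcr7*, *Cab39* and *Zfyve19*) were still among the closest 3.

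Markers of the cells themselves moved with some of the 9. The summed macrophage markers correlated at 0.83 with *Csf2ra*, 0.79 with *Cebpa*, 0.73 with *Csf2rb* and 0.71 with *Csf3r* (n = 12 arrays), but at 0.20 with *Spi1*. On the linear scale of the sum *Lyz2* (mean log2 signal 16.94, next *Cd68* at 13.27) made up most of it, so these correlations are mainly with *Lyz2*. *Csf2ra* and *Csf2rb* also correlated at 0.71 each with the B cell markers and at −0.71 and −0.66 with the sensory neuron markers. The macrophage sum ranged from 16.13 to 18.21 on antagomir-21 arrays and from 16.05 to 17.50 on scramble arrays, and from 16.13 to 18.21 with miR-21 exosomes and 16.05 to 18.09 with GFP exosomes. Of the 4 antagomir-21 arrays 3 (18.21, 18.04 and 18.09) were above every scramble array, and the overlap came from the one at 16.13. Those 3 arrays also had the highest SD of all signals (2.46 to 2.48), and the part of the array scale here was not tested. All 7 macrophage markers were higher in antagomir-21 than in scramble PMs (median 0.83, with 0.98 on median-centred and 0.78 on quantile-normalized arrays), and all 7 were lower in scramble than in lipofectamine PMs (median −0.55). *Maf* correlated at 0.84 with the summed B cell markers, *Cebpb* at 0.75 with the 6 mesothelial markers, which ran from 10.12 to 11.29 with miR-21 exosomes and from 9.04 to 10.75 with GFP exosomes, and *Csf3r* at 0.05 with the neutrophil markers. Single mesothelial genes averaged 5.86 to 7.96 and sensory neuron genes 5.51 to 8.54, low signals that cannot be told apart from background, so these sums do not show that such cells were present. The B cell sum was made mostly by *Ms4a1*, so its correlations are mainly with that gene, and it does not show how many B cells were present. The part of other cells in the signals of the 9 genes was not tested, and in bulk RNA fewer cells of a type cannot be told apart from less RNA per cell.

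The rest of the pathway, read through lists of known ligands, transducers, factors and targets, is given by counts. No gene of any list had an adjusted p under 0.05 in any comparison. Counts at an unadjusted p stand beside the shares of all genes under 0.05. These were 5.16% for antagomir-21 against scramble, 5.45% for miR-21 against GFP exosomes and 4.14% for scramble against lipofectamine. Among 9 ligands and other receptor chains of the family, 4 were higher and 5 lower in antagomir-21 than in scramble PMs (median −0.31, all genes 0.00), and 1 had an unadjusted p under 0.05: *Csf3*, the gene of G-CSF, at 3.87 ± 0.30 in antagomir-21 PMs and 6.11 ± 1.87 in scramble PMs (SD, n = 4 each; difference −2.24, limma unadjusted p = 0.039, adjusted p = 0.924). *Csf3* was also higher in scramble PMs (6.11 ± 1.87) than in lipofectamine PMs (3.32 ± 0.92; SD, n = 4 each; difference 2.79, limma unadjusted p = 0.0144, adjusted p = 0.9999). Both comparisons use the same 4 scattered scramble arrays. Over the 12 arrays *Csf3* averaged 4.43 (2.20 to 8.44), against array medians of 7.92 to 8.58, and so low a signal cannot be told apart from background. The ends of that list were *Il5* (−2.55), *Csf3*, *Csf2rb2* (0.67) and the IL-3 receptor alpha chain *Il3ra* (1.48). Between miR-21 and GFP exosomes 6 were higher and 3 lower (median 0.46, all genes −0.02), none with an unadjusted p under 0.05, with *Il5* (1.58) and *Csf2*, the gene of GM-CSF (1.44), at the upper end and *Il3ra* (−1.50) and *Il5ra* (−0.95) at the lower.

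Of 22 signal transducers 20 were measured, 14 higher and 6 lower in antagomir-21 than in scramble PMs (median 0.28), from *Shc1* (−1.21) and *Pik3cd* (−1.17) to the phosphatase gene *Ptpn6* (1.28) and the kinase gene *Fes* (1.74), with none at an unadjusted p under 0.05. Between the exosomes 7 were higher and 13 lower with miR-21 (median −0.40), and 1 of the 20 had an unadjusted p under 0.05, beside 5.45% of all genes. *Socs1*, which encodes an inhibitor of JAK kinases, was the one with an unadjusted p under 0.05, at 4.56 ± 0.72 with miR-21 exosomes and 6.12 ± 2.39 with GFP exosomes (SD, n = 6 each; difference −1.56, limma unadjusted p = 0.0242, adjusted p = 0.846). After antagomir-21 *Socs1* was at 4.06 ± 0.89 with miR-21 exosomes and 7.96 ± 0.01 with GFP exosomes (SD, n = 2 each; difference −3.90, limma unadjusted p = 0.0033, adjusted p = 0.516), so much of the pooled difference lay in that transfection. *Socs1* also differed between scramble PMs (6.06 ± 1.51) and lipofectamine PMs (3.94 ± 1.16; SD, n = 4 each), by 2.12 (limma unadjusted p = 0.0149, adjusted p = 0.9999). Over the 12 arrays *Socs1* averaged 5.34 (2.31 to 7.97), against array medians of 7.92 to 8.58, and so low a signal cannot be told apart from background. The others at the ends were *Ptpn6* (−1.36), *Fes* (0.54) and *Shc1* (0.58).

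Of 26 other transcription factors 24 were measured. In antagomir-21 PMs 18 were higher and 6 lower than in scramble PMs (median 0.27), from *Gfi1* (−2.04) and *Klf2* (−1.19) to *Gata1* (0.90) and *Irf4* (0.99), none with an unadjusted p under 0.05. With miR-21 exosomes 4 were higher and 20 lower than with GFP exosomes (median −0.37, all genes −0.02), and 1 of the 24 had an unadjusted p under 0.05, beside 5.45% of all genes. *Batf3*, which works with IRF8 in dendritic cells, was at 5.89 ± 1.08 with miR-21 exosomes and 7.87 ± 0.63 with GFP exosomes (SD, n = 6 each; difference −1.98, limma unadjusted p = 0.00381, adjusted p = 0.611), the 1 of 24 with an unadjusted p under 0.05. *Batf3* averaged 6.88 over the 12 arrays, against array medians of 7.92 to 8.58, and so low a signal cannot be told apart from background. The other ends were the core-binding factor gene *Runx1* (−1.42), *Nr1h3* (0.35) and *Gata2* (0.94). Between scramble and lipofectamine PMs 2 of the 24 had an unadjusted p under 0.05, beside 4.14% of all genes. *Irf4* was at 8.45 ± 1.88 in scramble PMs and 10.19 ± 0.59 in lipofectamine PMs (difference −1.74, limma unadjusted p = 0.0403), and *Cebpd* at 9.29 ± 0.59 in scramble PMs and 7.60 ± 1.12 in lipofectamine PMs (SD, n = 4 each; difference 1.69, limma unadjusted p = 0.0451), with an adjusted p of 0.9999 for both.

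Genes known to be under the control of PU.1 were set beside *Spi1*. All 12 were measured, and 11 were lower with miR-21 than with GFP exosomes, by a median of −0.30 against −1.66 for *Spi1* itself, with none at an unadjusted p under 0.05. The values ran from −0.90 for the kinase gene *Btk* and −0.80 for the endotoxin coreceptor *Cd14* to −0.04 for the oxidase gene *Cybb* and 0.40 for the integrin gene *Itgam*. After antagomir-21 all 12 were lower with miR-21 exosomes (median −0.65, all genes −0.08), after scramble 8 of 12 (median −0.28) and after lipofectamine 4 of 12 (median 0.08), while *Spi1* differed by −2.63, −0.20 and −2.14 in these transfections. Between antagomir-21 and scramble 8 were higher and 4 lower (median 0.46), where *Spi1* was at −1.08. After quantile normalization 8 of the 12 were lower with miR-21 exosomes over the 3 transfections and 18 of the 24 other transcription factors, and after median centring, which put the median of all genes at −0.23, 11 of 12 and 22 of 24. Each of these counts is taken over genes of the same arrays, and *Itgam*, *Cd14*, *Fcgr1* and *Lyz2* also stand among the macrophage markers.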

How the data were processed

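Arrays were grouped, and replicates numbered, by the sample labels. The members and the lists of pathway and marker genes were chosen with earlier results of these data known. The unit is the log2 signal of a probe set, as the authors deposited it. Arrays had been scaled to a common trimmed mean (496 to 499 on the linear scale after 2% was removed at each end), whereas the methods name RMA and quantile normalization in the affy package. The arrays differed in median (7.92 to 8.58) and SD (2.04 to 2.48), so they were not brought to a shared distribution, and the software behind them was not named in any source used. The methods state independently collected biological replicates, 3 per condition, and 2 arrays per group are analyzed here. The methods name a WT Pico kit, and the labels NuGEN and Encore Biotin kits.

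Of 45037 probe sets, 34945 with 1 symbol in the platform annotation were kept (932 had several and 9160 were not listed). The probe set with the highest mean stood for each of 18193 genes. The table holds no detection calls, and the number of arrays limits the precision. Differences between group means were tested by lmFit and eBayes (limma 3.58.1, R 4.3.3; 6 residual degrees of freedom, Benjamini-Hochberg over all genes, two-sided), with the threshold at 0.05 and counts also at an unadjusted p, as the methods name no adjustment. The script was tested on simulated data. Members are given in full. Of each list the 2 highest and 2 lowest by difference are named, and any that passed an unadjusted p in a comparison over pooled groups. The test of the other probe sets was added after the data had been seen. Summed markers are log2 of the sum on the linear scale.

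Alternatives were quantile normalization, median centring, the mean of all probe sets of a gene, genes above the median signal alone, an unpaired test, a replicate block, and each array left out in turn. The methods give the unpaired test in their general statistics and name no test for the arrays.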

Additional observations from a re-analysis of the deposited data

How the results depend on the processing

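In the pooled comparisons, the interaction and the F test, none of the 9 genes had an adjusted p under 0.05 under any alternative run. Signs were less steady. Under quantile normalization the sign turned for *Maf* (−0.083 for antagomir-21 against scramble, 0.17 for the interaction) and *Csf2ra* (0.051 for miR-21 against GFP exosomes, −0.039 for scramble against lipofectamine). Median centring turned *Cebpb* (0.025, antagomir-21 against scramble), *Csf1r* (−0.067, miR-21 against GFP exosomes), and *Csf2ra* (−0.073) and *Irf8* (−0.030, scramble against lipofectamine). With the mean of all probe sets *Csf1r* went to 0.79, −0.17 and −0.51 for antagomir-21 against scramble, miR-21 against GFP exosomes and scramble against lipofectamine, *Irf8* to −0.63 (antagomir-21 against scramble), −0.064 (scramble against lipofectamine) and −1.25 (the interaction), *Maf* to 0.0021 (miR-21 against GFP exosomes), and *Csf2ra* and *Csf2rb* to 0.24 and 0.42 (the interaction), while *Csf2rb* kept its sign at 1.65 for antagomir-21 against scramble (unadjusted p = 0.0311).

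Leaving out single arrays turned the sign of more genes. For antagomir-21 against scramble these were *Csf1r* (−0.69 to 0.37), *Csf2rb* (−0.056 to 1.14), *Cebpb* (−0.38 to 0.13), *Maf* (−0.30 to 0.68), *Irf8* (−0.14 to 0.70). For miR-21 against GFP exosomes these were *Csf1r* (−0.22 to 0.49), *Csf2ra* (−0.40 to 0.24), *Csf2rb* (−0.75 to 0.051), *Csf3r* (−0.30 to 1.17), *Irf8* (−0.30 to 0.26). For scramble against lipofectamine these were *Csf1r* (−0.044 to 1.02), *Csf2ra* (−0.41 to 0.51), *Csf2rb* (−0.89 to 0.31), *Spi1* (−0.17 to 2.34), *Maf* (−0.11 to 0.87), *Irf8* (−0.20 to 0.38). For the interaction these were *Csf1r* (−1.53 to 0.60), *Csf2rb* (−2.004 to 0.39), *Csf3r* (−4.19 to 0.23), *Cebpa* (−2.40 to 1.07), *Maf* (−1.03 to 0.92), *Irf8* (−0.48 to 1.20). Counts of all genes at an unadjusted p under 0.05 without single arrays ran from 721 to 1538 (antagomir-21 against scramble), 690 to 1600 (miR-21 against GFP exosomes), 492 to 1255 (scramble against lipofectamine), 678 to 1595 (antagomir-21 against scramble, GFP exosomes alone), 805 to 1538 (antagomir-21 against scramble, miR-21 exosomes alone), 391 to 1808 (miR-21 against GFP exosomes in lipofectamine PMs), the remaining array of a group being assumed to vary like the other groups. Replicate 2 of 4 groups moved them most: without that of antagomir-21 with miR-21 exosomes antagomir-21 against scramble had 1538, without that of scramble with GFP exosomes 1454 (and scramble against lipofectamine 1255), without that of lipofectamine with miR-21 exosomes miR-21 against GFP exosomes had 1600 (and scramble against lipofectamine 1237), and without that of lipofectamine with GFP exosomes scramble against lipofectamine had 492.

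Among genes above the median signal, about 1 of every 2 tested before, those counts were 294 (antagomir-21 against scramble), 312 (miR-21 against GFP exosomes), 263 (scramble against lipofectamine), 322 (the interaction), 269 and 360 (antagomir-21 against scramble, GFP or miR-21 exosomes alone), 241, 394 and 211 (the 2 exosome types in antagomir-21, scramble and lipofectamine PMs) and 261 (the F test). For the arrays the methods name no test, and the unpaired test that their general statistics give for 2 groups was run on the same values. It counted 597 genes for antagomir-21 against scramble at an unadjusted p under 0.05. After adjustment it called 2 genes for antagomir-21 against scramble, miR-21 exosomes alone, and 1 for the 2 exosome types in scramble PMs, and the cause was not tested. Same-numbered arrays did not deviate together (15 correlations between deviations from group means, −0.192 to 0.167, 1 of them over 0.1). With the replicate number as a block 935 genes had an unadjusted p under 0.05 for antagomir-21 against scramble, 988 for miR-21 against GFP exosomes and 743 for scramble against lipofectamine, and no sign or call of the 9 genes changed. Low signals limit what can be read: the table gives no background, and 2 arrays per group leave an SE of 0.85 to 1.49 for a difference between 2 groups.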
